A study of Mus musculus with 21 samples.

Results

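Mast cell genes were followed in mouse back skin through 8 weeks of UV irradiation. The set holds 9 genes, Tpsab1, Tpsb2, Cma1, Mcpt4, Cpa3, Kit, Ms4a2, Fcer1a and Hdc, chosen by name, and every probe set annotated to 1 of them alone was taken. That gave 13 of the 45101 probe sets on the array, and 9 of the 18193 genes that have a probe set of their own. All 13 probe sets passed the filter on low intensities. Where a gene had more than 1 probe set, the one with the highest mean over all arrays was used and is called the leading probe set.

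Mast cells are long-lived immune cells of the dermis that store histamine, heparin and proteases in granules. They depend on stem cell factor, which binds the receptor Kit, and they release their granules when IgE on their surface is crosslinked through the high-affinity IgE receptor. Proteases are among the most abundant products of these cells, and their combination differs between mast cells of connective tissue and of mucosa. In skin they are known for roles in allergy, in defence and in the response to UV light.

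RNA of dorsal skin from female albino hairless mice (Hos:HR-1), bought at 6 weeks of age and acclimated for 1 week, was hybridised to 21 Affymetrix Mouse Genome arrays. The arrays formed 7 groups of 3 by their labels, although the methods speak of fewer groups. Controls that received no UV were sampled at week 1 and week 8. Irradiated skin was sampled in 5 of the weeks, namely 1, 2, 4, 6 and 8. UV weeks 2, 4 and 6 have no control of the same week, so UV and age cannot be told apart there. Irradiation was given 3 times a week from a UVB-rich lamp, and the dose rose weekly by 1 minimal erythemal dose (MED, 100 mJ per square centimetre) to 4 MED and was then held. All groups share the same strain, sex and skin site, and the methods name no transgene. Whole skin was measured, so that fewer mast cells and less RNA per mast cell cannot be told apart. The labels do not say which mouse each array came from, so the tests measure the spread between arrays.

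Values are log2 intensities of normalized arrays, and differences are on the log2 scale with 3 arrays per group. Array medians lay between 30.1 and 33.3 on the linear scale, and arrays of 1 group correlated across probe sets with r between 0.962 and 0.996. A probe set was called when its p from limma, adjusted by the Benjamini-Hochberg method over the 40540 probe sets tested, was 0.05 or less, whatever the size of the change. RNA integrity differed between arrays: the log2 ratio of the 3' to the 5' beta-actin control probe sets, which rises as RNA breaks down, ranged from 2.26 (UV week 2, array 224) to 5.14 (UV week 8, array 552). Group means of this ratio were 3.22 and 3.33 in the controls of weeks 1 and 8, and 3.99, 2.85, 3.46, 3.86 and 4.27 in UV weeks 1, 2, 4, 6 and 8. The Gapdh ratio, formed in the same way, ordered the groups differently. It was 6.95, 3.66 and 2.79 in the week 1 controls and 5.98, 4.85 and 6.21 in the week 8 controls. At UV week 8 it was 2.37, 6.09 and 5.93.

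Cpa3 and Kit were called lower at UV weeks 6 and 8 against the week 1 control. Cma1 and Mcpt4 are chymases of 1 gene cluster. The promoters of these 4 members are shown for these reasons. They are the bases just upstream of the RefSeq gene start (build GRCm38.p6), 5' to 3' on the gene's strand, and capitals mark a match to the GATA motif, which is the letters GATAA or GATAG after an A or a T, on either strand. GATA factors are known regulators of mast cell genes.
Cpa3, chr3:20242210-20242431, minus strand: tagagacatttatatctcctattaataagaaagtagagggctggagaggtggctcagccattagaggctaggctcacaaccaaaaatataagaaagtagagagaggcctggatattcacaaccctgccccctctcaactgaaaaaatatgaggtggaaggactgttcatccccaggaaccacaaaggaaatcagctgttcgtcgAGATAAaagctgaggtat
Kit, chr5:75574737-75574986, plus strand: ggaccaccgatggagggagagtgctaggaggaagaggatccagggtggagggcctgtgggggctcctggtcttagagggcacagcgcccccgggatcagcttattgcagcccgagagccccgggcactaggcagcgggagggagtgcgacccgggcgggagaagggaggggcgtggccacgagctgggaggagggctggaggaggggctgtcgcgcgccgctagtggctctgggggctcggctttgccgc
Cma1, chr14:55944676-55944925, minus strand: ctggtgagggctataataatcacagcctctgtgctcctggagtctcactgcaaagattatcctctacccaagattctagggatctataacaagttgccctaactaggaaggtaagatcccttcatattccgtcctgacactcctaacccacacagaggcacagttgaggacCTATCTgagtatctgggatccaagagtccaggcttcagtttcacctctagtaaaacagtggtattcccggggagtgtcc
Mcpt4, chr14:56062311-56062560, minus strand: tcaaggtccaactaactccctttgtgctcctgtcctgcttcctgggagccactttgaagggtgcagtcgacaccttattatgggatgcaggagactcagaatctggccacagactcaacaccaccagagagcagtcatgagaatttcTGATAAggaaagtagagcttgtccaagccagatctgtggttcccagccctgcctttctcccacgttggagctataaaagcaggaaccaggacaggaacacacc
Of the 6 members searched, 5 held a GATA match (Cpa3, Cma1, Mcpt4, Fcer1a and Ms4a2) and Kit held none, where 26.5% of 32851 mouse promoters of 250 bases hold one. The windows of Cpa3 (222 bases), Fcer1a (247 bases) and Ms4a2 (179 bases) were shorter, since bases within the annotated gene were left out. The match lay 46 bases before the start used for the promoter in Cpa3, 79 in Cma1 and 103 in Mcpt4. In Cpa3 that start lies within the annotated gene, so the match is closer than this to the end of the printed sequence. The motif CATGTG or CACATG, an E-box bound by Mitf, was found in Fcer1a alone, against 12.3% of all promoters. A match is a description of the letters and not of a bound site.

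At UV week 2 the leading probe sets of the tryptases were at their highest. Tpsab1, a tryptase stored in mast cell granules, rose 3.22-fold over the week 1 control, where its signal lay near the array medians. It was the only member called higher in this comparison. Tpsb2, the tryptase encoded next to it on chromosome 17 with 0 protein-coding genes between them, was 1.02 higher (SE 0.30) but did not pass (adjusted p = 0.355). No member was called lower.

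Tpsab1 measured 4.93, 5.17 and 5.18 in the week 1 controls, and 6.39, 6.51 and 7.44 at UV week 2. All 3 arrays of UV week 2 lay above all 18 other arrays, the highest of which was 5.49 at UV week 1. The group means were 5.09 ± 0.14 (SD, n = 3) and 4.93 ± 0.24 in the controls of weeks 1 and 8, and 4.98 ± 0.46, 6.78 ± 0.57, 5.11 ± 0.31, 4.92 ± 0.23 and 4.83 ± 0.36 in the UV groups in order of time. The groups other than UV week 2 therefore had overlapping arrays. The difference of UV week 2 from the week 1 control was 1.69 (SE 0.27, adjusted p = 0.0199). The geometric mean of Tpsab1 in that control was 34.1 on the linear scale, near the array medians of 30.1 to 33.3. The size of the rise therefore depends on a low baseline, and with a pseudocount of 16 the difference was 1.34 (adjusted p = 0.0227). In this comparison 1 of 9 members was called higher, where 0.0321% of all probe sets were called higher and 0.0296% lower. The call was lost without array 12 (1.61), array 13 (1.73), array 224 (1.82) or array 225 (1.36), after further quantile normalization (1.57, adjusted p = 0.0583) and when the compared groups were fitted alone (adjusted p = 0.209). UV week 2 had the lowest beta-actin ratio, and with that ratio as a covariate the difference was 1.61 (adjusted p = 0.00387).

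Tpsb2 measured 6.24, 6.61 and 6.77 in the week 1 controls and 7.41, 7.41 and 7.88 at UV week 2. These 3 arrays lay above the other 18, of which the highest was 7.25 at UV week 4. A second, dim probe set of Tpsb2 did not follow, with a mean of 4.18 at UV week 2, below the 4.35 of UV week 1 and the 4.52 of UV week 6, and a difference of 0.13 from the week 1 control (adjusted p = 1). Tpsab1 and Tpsb2 had a Pearson r of 0.837 over the 21 arrays, and 0.720 after the group means were taken out, given as a description of arrays that share their RNA. That r of 0.837 was the highest of the member pairs. The lowest was -0.25, for Ms4a2 and Tpsb2, with -0.52 after the group means were taken out. Whether probes of one tryptase also bind transcripts of the other was not tested. The paper lists Tpsb2 among its downregulated genes and does not name the probe set it used. Here the leading probe set of Tpsb2 was called lower in no comparison. Cma1, a chymase, was also above the week 1 control on all 3 arrays of UV week 2, with 0.46 (95% interval 0.08 to 0.84, adjusted p = 0.63). Thus 3 of 9 members had UV week 2 arrays beyond the week 1 control, where 6.6% of all probe sets lay above it without overlap, and none lay below, where 6.48% did. The median difference of the members was 0.30, against 0.00 over all probe sets tested.

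**Figure D1:**
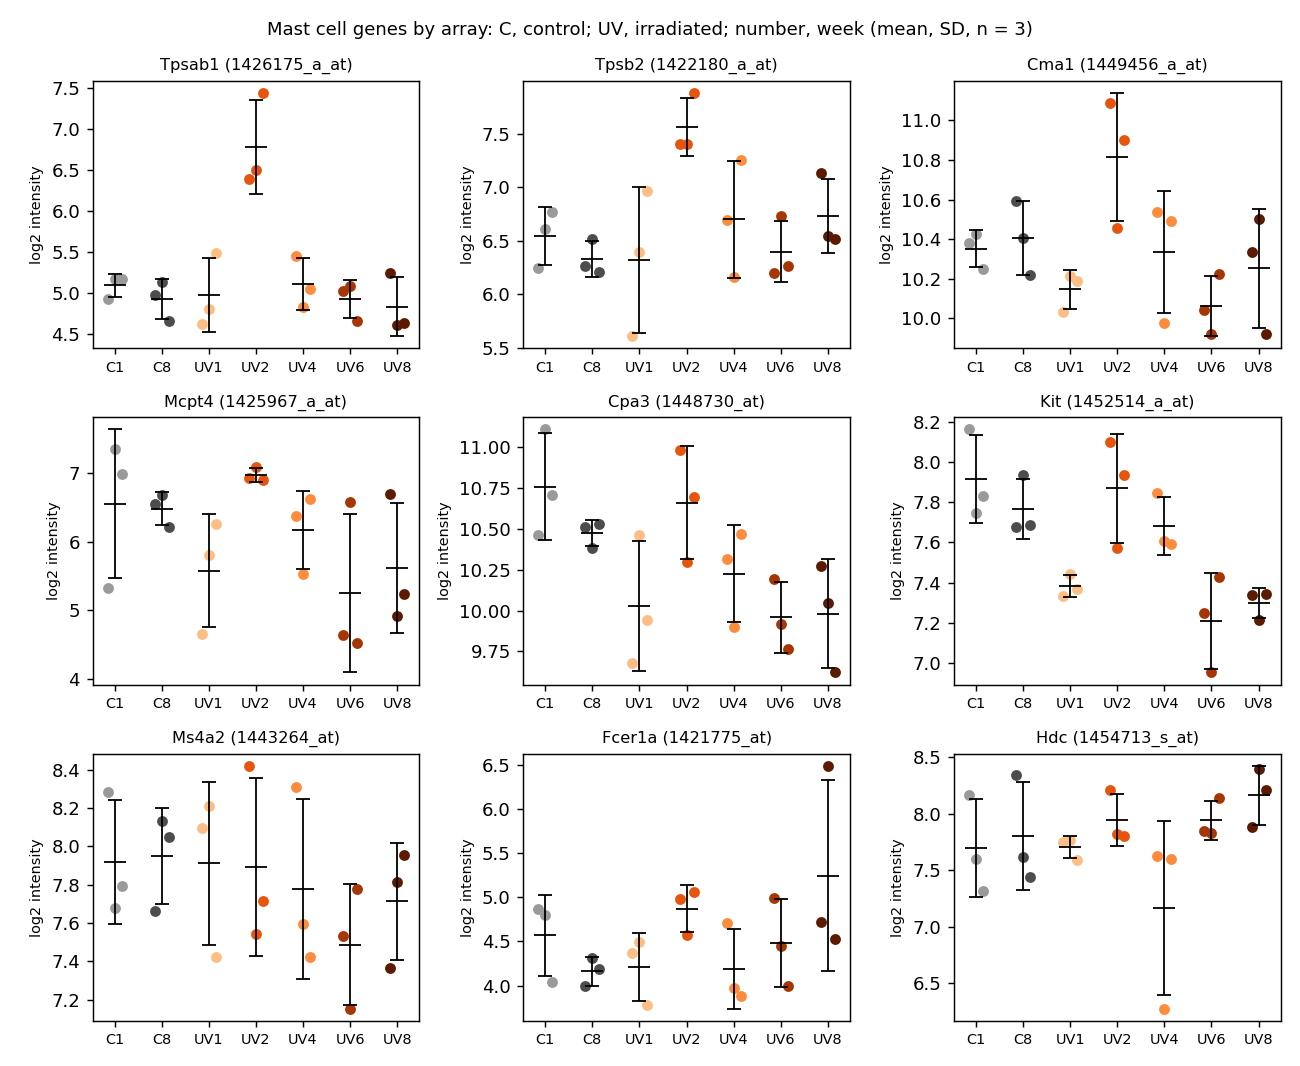
Log2 intensity of the leading probe set of each mast cell gene (y axis, scaled to each gene) by group (x axis: C, control; UV, irradiated; the number is the week), with a point per array and black bars for the mean and SD of 3 arrays. Tpsab1 at UV week 2 lies between 6.39 and 7.44, above all other arrays, and Kit is below its week 1 control at UV weeks 1, 6 and 8.

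The tryptases stood high at UV week 2 against the weeks on either side. From UV week 1 to UV week 2 Tpsab1 rose by 1.80 (3.49-fold, SE 0.27, adjusted p = 0.0447), the 1 member called higher where 0.00987% of all probe sets were higher and 0.00247% lower. From UV week 2 to UV week 4 its difference was -1.67 (95% interval -2.23 to -1.11, adjusted p = 0.0801), and 0.0% of all probe sets passed in either direction there. Both comparisons share the arrays of UV week 2. No member was called between UV weeks 4 and 6, where 0.0% of all probe sets were higher and 0.00493% lower, or between UV weeks 6 and 8, where 0.0% passed in either direction.

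The rise from week 1 to week 2 rested on a narrow margin. It was lost on leaving out any of 15 of the 21 arrays, which are arrays 16, 51, 53, 55, 112, 114, 224, 225, 331, 333, 334, 441, 443, 445 and 552. The difference was then between 1.47 (without array 225) and 1.94 (without array 224). It was also lost after quantile normalization, with a pseudocount of 16, with the compared groups alone and without the 8 arrays whose beta-actin ratio was above 4. Of the 9 members, 7 had all 3 arrays of UV week 2 above those of UV week 1, where 12.0% of all probe sets did, and the exceptions were Cpa3 and Ms4a2. From week 2 to week 4, 4 members (Tpsab1, Tpsb2, Mcpt4 and Hdc) lay below without overlap, where 8.7% of all probe sets did, and none lay above, where 11.4% did. From week 4 to week 6, Kit lay below without overlap (10.3% of all probe sets did) and Hdc above (12.3% did). Between UV weeks 6 and 8 every member overlapped, where 2.14% of probe sets lay above and 2.3% below. The median difference of the members was 0.66 in the first step and -0.68 in the second, against -0.08 and 0.03 over all probe sets. The beta-actin ratio fell from a mean of 3.99 at UV week 1 to 2.85 at UV week 2, and with that ratio as a covariate the difference of Tpsab1 between these weeks was 1.57 (adjusted p = 0.0257).

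At UV weeks 6 and 8 the 2 members that fell were Cpa3 and Kit. Cpa3, carboxypeptidase A3 of the secretory granule, was 1.74-fold lower at UV week 6 and 1.71-fold lower at UV week 8 than in the week 1 control. Kit, the receptor for stem cell factor, was 1.63-fold and 1.53-fold lower. No member was called higher in either week, and Tpsab1 was the only member with a called change of more than 2-fold in any comparison. Both comparisons use the same control arrays.

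Cpa3 measured 10.46, 10.71 and 11.11 in the week 1 controls. It measured 9.77, 9.91 and 10.19 at UV week 6, and 9.62, 10.05 and 10.27 at UV week 8. In both weeks all arrays lay below all 3 controls. The difference was -0.80 (SE 0.23, adjusted p = 0.033) at week 6 and -0.78 (SE 0.23, adjusted p = 0.0361) at week 8. Without array 13, the highest control, these were -0.62 and -0.60 and no longer passed. The week 6 call was also lost without array 16 (-0.82), array 443 (-0.78) or array 445 (-0.70), and the week 8 call without array 16 (-0.80), array 552 (-0.81) or array 555 (-0.60). With the beta-actin ratio as a covariate the difference was -0.74 (adjusted p = 0.0309) at week 6 and -0.68 (adjusted p = 0.065) at week 8.

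Kit measured 7.75, 7.83 and 8.16 in the week 1 controls. At UV week 6 it measured 6.95, 7.25 and 7.43, and at UV week 8 7.21, 7.34 and 7.34, again with no overlap with the controls. The difference was -0.71 (SE 0.15, adjusted p = 0.00943) at week 6 and -0.62 (SE 0.15, adjusted p = 0.0163) at week 8. The week 6 call held on leaving out each of the 21 arrays in turn, while the week 8 call was lost without array 552 (-0.57) or array 555 (-0.64). With the beta-actin ratio as a covariate Kit differed by -0.76 and -0.71 (adjusted p = 0.00212 and 0.00451). A second, dim probe set of Kit did not move this way, with 0.43 (SE 0.16, adjusted p = 0.0818) at week 6 and 0.31 (SE 0.16, adjusted p = 0.188) at week 8, and 0.24 over all UV groups (adjusted p = 0.0884).

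The 2 members called lower stand against a high background, since 6.3% of all probe sets were called lower and 5.43% higher at week 6, and 6.73% lower and 5.39% higher at week 8. Arrays lay below the week 1 control without overlap for 3 members at week 6 (Cpa3, Kit and Cma1) where 13.6% of probe sets did, and for 2 at week 8 where 8.33% did. The median difference of the members was -0.29 at week 6 and -0.21 at week 8, against 0.08 and 0.09 over all probe sets. Both Cpa3 calls and both Kit calls were lost after quantile normalization (-0.64 and -0.62 for Cpa3, -0.52 and -0.45 for Kit) and when the compared groups were fitted alone. Without the 8 arrays whose beta-actin ratio was above 4, which leaves 1 array at each of UV weeks 1, 6 and 8, the week 8 differences were -0.63 for Cpa3 (adjusted p = 0.229) and -0.45 for Kit (adjusted p = 0.331), and the week 6 differences were -0.99 (adjusted p = 0.0327) and -0.84 (adjusted p = 0.0364). The spread in that fit comes from the other groups, and the lone arrays are assumed to vary like them.

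**Figure D2:**
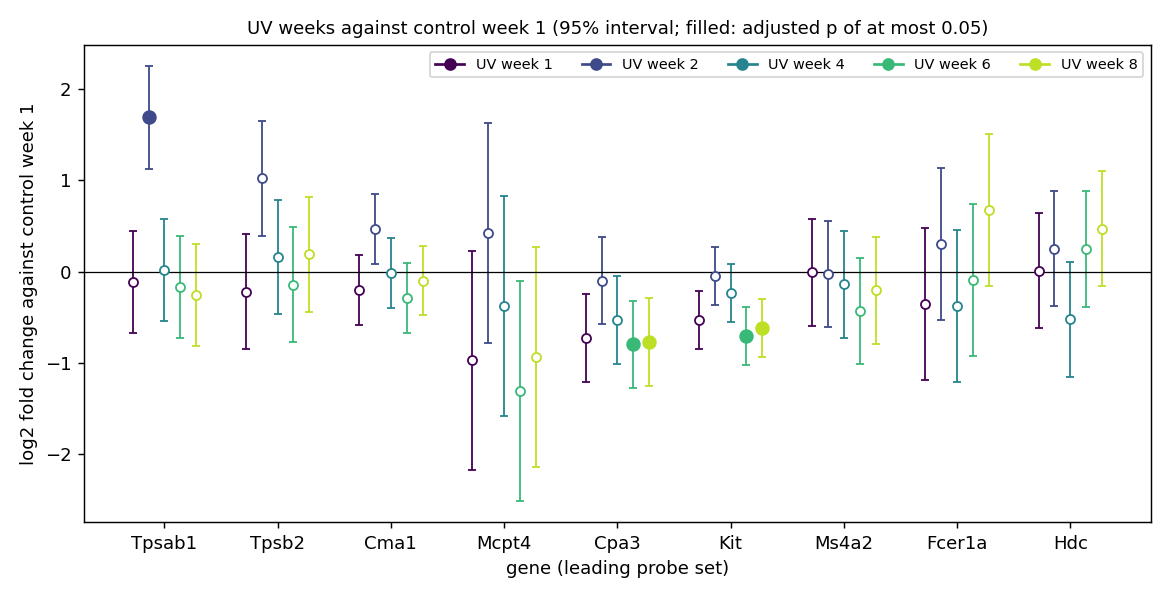
Log2 fold change of each mast cell gene against the week 1 control (y axis) by gene (x axis), 1 colour per UV week, with 95% intervals from limma and filled points where the adjusted p is at most 0.05. The filled points are Tpsab1 at UV week 2 (1.69) and Cpa3 and Kit at UV weeks 6 and 8, which lie between -0.80 and -0.62.

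The earlier weeks and the week 8 control give the rest of the time course of Cpa3 and Kit. At UV week 1, the first week of exposure, Cpa3 differed from the week 1 control by -0.73 (95% interval -1.21 to -0.25, adjusted p = 0.157) and Kit by -0.53 (95% interval -0.85 to -0.21, adjusted p = 0.146). Kit measured 7.33, 7.37 and 7.44 there, below all 3 controls, and its mean returned to 7.87 at UV week 2. No member was called at UV week 1, where 0.0% of all probe sets were called higher and 0.0123% lower, and 2 members (Kit and Cma1) lay below without overlap, where 7.85% of probe sets did and 11.7% lay above. At UV week 4 no member was called either, where 0.36% of all probe sets were called higher and 0.772% lower, and all 9 overlapped the control, where 11.9% of probe sets lay above it and 9.22% below.

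Against the week 8 control Kit at UV week 8 differed by -0.47 (95% interval -0.79 to -0.15, adjusted p = 0.0657) and Cpa3 by -0.49 (95% interval -0.97 to -0.01, adjusted p = 0.173). Both lay below the 3 controls of that week without overlap, as 9.82% of all probe sets did. No member was called, where 2.56% of all probe sets were called higher and 4.3% lower. Kit passed with the beta-actin ratio (-0.56, adjusted p = 0.0258) or the Gapdh ratio (-0.44, adjusted p = 0.0387) as a covariate or without array 551 (-0.49, adjusted p = 0.0345), and over the arrays left out in turn it ran from -0.51 to -0.38 (highest adjusted p = 0.218). Between the controls of week 8 and week 1 no member was called, where 0.0296% of all probe sets were called in each direction, and the members' differences ran from -0.41 to 0.11. All 9 members overlapped between these controls, where 6.19% of probe sets lay above and 6.6% below. With the 5 UV groups averaged against both controls, Cpa3 (-0.44, adjusted p = 0.035) and Kit (-0.35, adjusted p = 0.0151) fell, 2 members lower where 8.57% of all probe sets were lower and 6.3% higher. Both calls were lost after quantile normalization, and that of Kit without the 8 arrays of a high beta-actin ratio or without array 53 (-0.31). That Cpa3 call was lost without array 13, 16, 51, 53, 55, 112, 224, 333, 445 or 555 (-0.36 to -0.47).

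Without a covariate for RNA quality, the chymases did not pass in any comparison with the controls on all arrays. Cma1 and Mcpt4 lie on chromosome 14 with 4 protein-coding genes between them (Cma2, Mcpt1, Mcpt2 and Mcpt9), which include other mast cell proteases. Cma1 varied little, between 9.92 and 11.09 over all arrays, and its group means ran from 10.06 at UV week 6 to 10.81 at UV week 2. Mcpt4, a chymase of connective tissue mast cells, varied far more within groups. It measured 5.32, 6.99 and 7.34 in the week 1 controls and 4.53, 4.64 and 6.57 at UV week 6, so that the groups overlapped. The difference was -1.30 (95% interval -2.51 to -0.10, adjusted p = 0.129).

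The level of Mcpt4 moved with RNA integrity within the groups. In the fit with the beta-actin ratio as a covariate, the slope of Mcpt4 was -0.73 on the log2 scale for each unit of the log2 ratio (SE 0.07, adjusted p = 6.34e-07). It was -0.30 for Tpsb2 (adjusted p = 0.0024) and -0.21 for Tpsab1 (adjusted p = 0.0292), whereas Ms4a2 had a slope of 0.26 (adjusted p = 0.00653). The slopes of Cpa3 (-0.09, SE 0.07, adjusted p = 0.312) and Kit (0.09, SE 0.04, adjusted p = 0.112) did not pass. Falling slopes were called for 14.8% of all probe sets and rising ones for 17.1%. With this covariate Mcpt4 at UV week 6 differed from the week 1 control by -0.84 (adjusted p = 0.0173), and with the Gapdh ratio by -1.18 (adjusted p = 0.00362). With the Gapdh ratio it was also called lower at UV week 8 against the controls of week 1 (-0.81, adjusted p = 0.0227) and week 8 (-1.20, adjusted p = 0.00254) and over all UV groups (-0.83, adjusted p = 0.000469), none of which passed with the beta-actin ratio. With no covariate the week 6 difference passed without array 12 (-1.92) or array 443 (-1.97), and was smallest without array 13 (-0.91, adjusted p = 0.418).

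**Figure D3:**
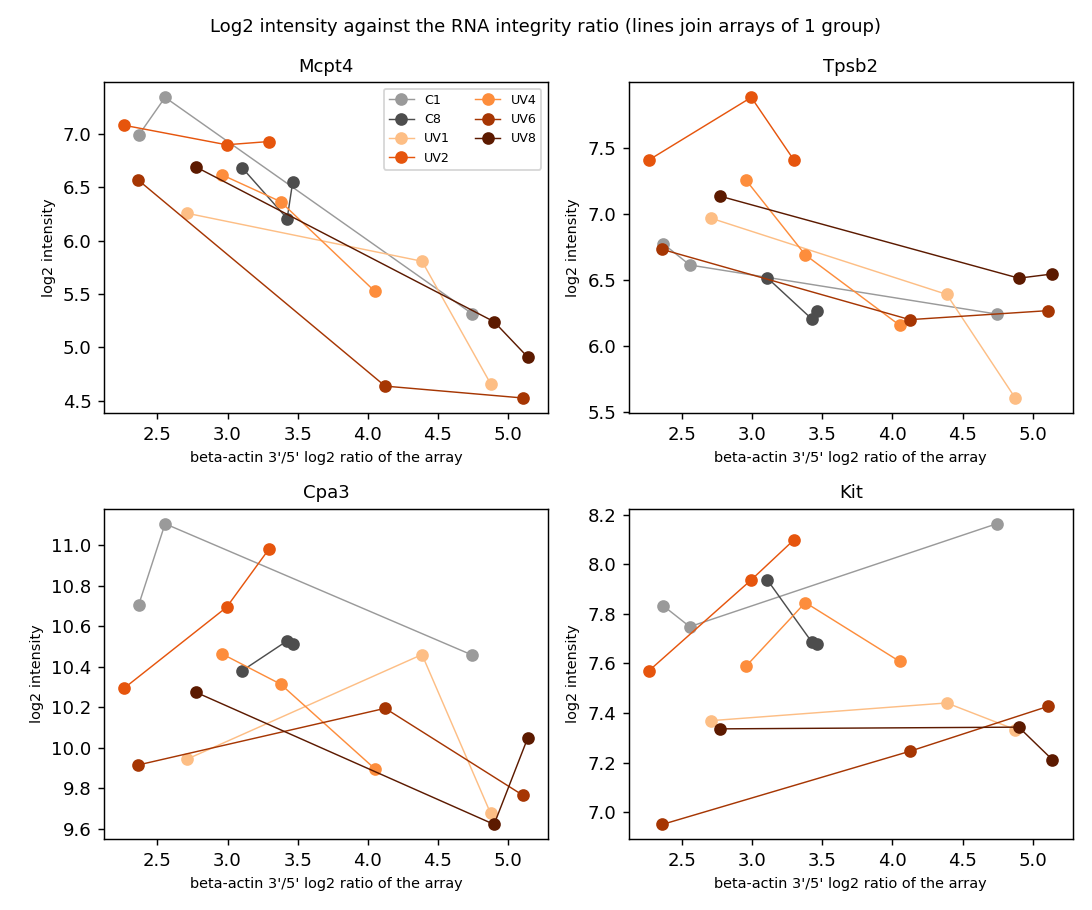
Log2 intensity of Mcpt4, Tpsb2, Cpa3 and Kit (y axes) against the beta-actin 3'/5' log2 ratio of the array (x axis), a point per array, with lines that join the 3 arrays of a group. Mcpt4 falls as the ratio rises, from 7.34 at a ratio of 2.55 to 5.32 at 4.74 among the week 1 controls, and Kit shows no such fall.

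The IgE receptor and the histamine enzyme showed no called difference. Ms4a2, the beta chain of the high-affinity IgE receptor, had group means between 7.49 (UV week 6) and 7.95 (week 8 control). Its leading probe set was designed from an expressed sequence tag, and its second probe set was dim. Fcer1a, the chain that binds IgE, was dim on most arrays. At UV week 8 it measured 4.53, 4.72 and 6.49, the last on array 552, against 3.99, 4.18 and 4.32 in the week 8 control. The difference was 1.08 (95% interval 0.25 to 1.91, adjusted p = 0.0951), and this 1 member lay above the control without overlap, where 12.5% of all probe sets did. It passed with the Gapdh ratio as a covariate (1.17, adjusted p = 0.0331) or without array 551 (1.35, adjusted p = 0.0219). Without array 552 it was 0.46 (adjusted p = 0.466).

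Hdc, which makes histamine from histidine, had its lowest mean at UV week 4 (7.17 ± 0.77) and its highest at UV week 8 (8.16 ± 0.26). The low mean came from array 333, at 6.28, while the other 2 arrays of that week were at 7.60 and 7.63. The difference from the week 1 control was -0.53 at UV week 4 (95% interval -1.16 to 0.11, adjusted p = 0.529) and 0.47 at UV week 8 (95% interval -0.16 to 1.10, adjusted p = 0.288). The test of the UV effect at week 8 against that at week 1 passed in no member, and the largest difference was 1.44 in Fcer1a (SE 0.56, unadjusted p = 0.0193, adjusted p = 1).

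**Figure D4:**
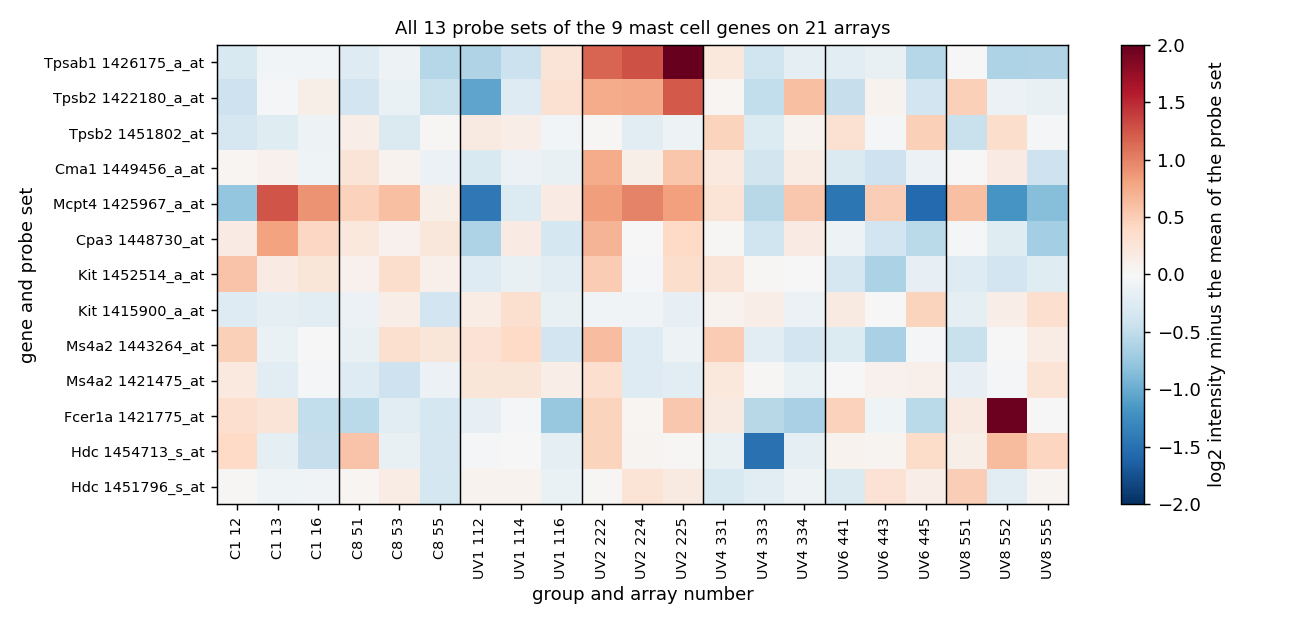
Log2 intensity minus the mean of each probe set (colour, capped at 2 in each direction) for the 13 probe sets of the mast cell genes (rows) on 21 arrays (columns, grouped by week and treatment). Tpsab1 and its neighbour Tpsb2 are high on the 3 arrays of UV week 2, and the second probe sets of Tpsb2, Kit, Ms4a2 and Hdc vary less than their leading ones.

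Genes that act with the members were counted in the comparisons where a member was called. Against the week 1 control 5.43% of all probe sets were called higher and 6.3% lower at UV week 6. At UV week 8 these shares were 5.39% and 6.73%. The counts of the lists were not tested against these shares. None of the genes on the 8 related lists passed at UV week 2 against the week 1 control or against UV week 1. Among 14 growth factors and cytokines measured, Kitl, which encodes stem cell factor, the ligand of Kit, fell at UV week 6 (-0.65, adjusted p = 0.0326) and at UV week 8 (-0.63, adjusted p = 0.0373). Its group means went from 10.44 in the week 1 control to 9.78 and 9.81, with 10.31 in the week 8 control. Il33, an alarmin that activates mast cells, was the 1 gene of this list called higher against the week 1 control, by 1.07 at UV week 8 (adjusted p = 0.0319). Its mean was 8.83 in that control but 9.47 in the week 8 control and 9.90 at UV week 8, a difference of 0.43 within week 8 (adjusted p = 0.357). Against the week 8 control no gene of the list passed, with -0.50 for Kitl (adjusted p = 0.101). The list medians against the week 1 control were 0.07 and 0.10.

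Of 6 other mast cell proteases 1 was called in each late week, which was Gzmb, granzyme B, also made by cytotoxic lymphocytes. It rose by 1.02 at UV week 6 (adjusted p = 0.0241) and by 1.18 at UV week 8 (adjusted p = 0.0115). Of 16 genes of the granule matrix and amine storage, Glce, an epimerase of heparin synthesis, fell in both weeks (-0.89 and -0.66, adjusted p = 0.00307 and 0.0135) and 15 did not pass. Of 6 eicosanoid enzymes, Ptgs2, the inducible cyclooxygenase, fell in both weeks (-1.98 and -2.07, adjusted p = 0.00465 and 0.00268) and 5 did not pass. Over all probe sets 5.43% were higher and 6.3% lower at week 6, and 5.39% and 6.73% at week 8.

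In Kit and IgE receptor signalling 2 of 21 genes rose and 3 fell at UV week 6, and 1 rose and 3 fell at UV week 8. Beside these and the counts below, 5.43% of all probe sets were higher and 6.3% lower at week 6. The shares at week 8 were 5.39% and 6.73%. Pik3r1, a regulatory subunit of phosphoinositide kinase, fell in both weeks (-1.51 and -1.47), as did the tyrosine phosphatase Ptpn11 (-0.58 and -0.68) and the adaptor Sh2b3, an inhibitor of Kit signalling (-0.72 and -0.64). Plcg2, a phospholipase, rose by 0.44 and 0.68, and Pik3cd, a catalytic subunit, rose by 0.72 at week 6. Among 16 transcription factors Stat5b, which acts downstream of Kit, fell in both weeks (-0.81 and -0.55), and Hes1 fell by 0.55 at week 6. Of 14 receptor and surface genes Lamp1 fell (-0.71 and -0.69) and Cxcr2 rose by 0.42 and 0.46, but none of the 14 passed at UV week 8 against the week 8 control. Of 8 genes of histamine receptors and breakdown Maob fell (-0.61 and -0.82) and Hnmt, a histamine methyltransferase, fell by 0.65 at week 6. Many of these genes are active in other skin cells too.

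Cpa3 and Kit were also called lower in the 5 UV groups averaged against both controls, and there 3 of the 6 other mast cell proteases were higher and none lower. These were Gzmb (0.90, adjusted p = 0.00214), Mcpt8 (0.43, adjusted p = 0.00847), which is also a basophil marker, and Tpsg1, a tryptase anchored in the membrane (0.24, adjusted p = 0.0448). Mcpt8 was dim, with UV group means of 4.55 to 5.05 where array medians were 4.91 to 5.06. Its control means were 4.58 at week 1 and 4.15 at week 8, so the size of its rise depends on the week 8 control. Of the 21 signalling genes 2 rose, Plcg2 (0.37) and the kinase Btk (0.45), and 5 fell, among them Ptpn11 (-0.50), Sh2b3 (-0.44) and Pik3r1 (-0.76). Kitl fell by 0.34 (adjusted p = 0.0449), the 1 called gene of its list. Glce (-0.53), Ptgs2 (-1.24), Stat5b (-0.29), Hes1 (-0.32) and Maob (-0.53) fell, Aoc1, which breaks down histamine, rose by 0.33, and no receptor or surface gene of 14 passed. Over all probe sets 8.57% were lower and 6.3% higher in this comparison.

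Markers of other cell types that carry member transcripts, and of the bulk of the skin, were read beside the falls of Cpa3 and Kit. Against the week 1 control 5.43% of all probe sets were higher and 6.3% lower at UV week 6, and 5.39% and 6.73% at UV week 8. Against the week 8 control 2.56% were higher and 4.3% lower at UV week 8. Melanocytes also carry Kit, and of 8 melanocyte markers none fell at UV week 6 or 8 while Slc45a2 rose by 0.60 at week 6 (adjusted p = 0.0223). Their summed intensity ran from 848 to 1566 in the week 1 control, 1138 to 2696 at UV week 6 and 883 to 2061 at UV week 8. Dermal fibroblast markers fell for 4 of 7 genes at week 6 and 3 of 7 at week 8, and their sum went from 68654 to 80087 in the week 1 control down to 34512 to 54648 and 42990 to 57168. Adipocyte markers fell for 4 of 5 genes in both weeks, with sums of 18193 to 21220, 10252 to 11924 and 8840 to 12670. The week 8 control, which had no UV, was already lower in adipocyte markers (12813 to 14960, list median -0.77 against the week 1 control), and against it 0 of 5 were called at UV week 8. Skeletal muscle markers fell for 2 and 4 of 6 genes, with sums of 61408 to 73005, 37389 to 43782 and 26375 to 39984. In the week 8 control the fibroblast sum was 61392 to 82024 and the muscle sum 60677 to 62096, and against it 2 of 7 and 3 of 6 genes were lower at UV week 8. The part of these changes in tissue makeup in the values of Cpa3 and Kit was not tested.

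Markers of other immune cells were read in the same way, beside the same shares of all probe sets. These were 5.43% higher and 6.3% lower at UV week 6, and 5.39% and 6.73% at UV week 8, against the week 1 control. For UV week 8 against the week 8 control they were 2.56% and 4.3%. Of 7 macrophage, 3 eosinophil and 2 basophil markers none was called at UV week 6 or 8 against the week 1 control, and of 7 neutrophil markers 1, Cxcr2, was higher in both weeks. Of 5 T cell markers Cd3g fell in both weeks and Cd8a rose at week 6. Of 7 Langerhans and dendritic cell markers Cd207 fell (-1.91 and -1.75) and H2-Ab1 fell by 0.95 at week 6. The sum of that list ran from 5550 to 6510 in the week 1 control and 6437 to 6845 in the week 8 control, and was 2897 to 3974 at UV week 6 and 2625 to 6216 at UV week 8. Among 6 keratinocyte markers Trp63 fell (-0.97 and -0.80). No marker on any of these lists passed at UV week 2 against the week 1 control. Against the week 8 control, 1 of 2 basophil markers was higher at UV week 8. This was Mcpt8, with group means of 4.15 and 4.87. There 1 of 7 neutrophil markers was also higher, but Cxcr2 did not pass. The T cell, Langerhans and dendritic cell, and keratinocyte lists each had 1 marker lower there, and no macrophage or eosinophil marker passed.

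The genes whose pattern was most like the members' mean, each member centred on its own mean, were ranked by Pearson r over the 21 arrays among 17394 genes. The members did not all move together, since the r of their pairs ran from -0.25 to 0.837 over these arrays. The first 10 were Fn1 (0.829), Bgn (0.786), Mfap5 (0.784), Lama4 (0.777), Islr (0.769), Serpinb1a (0.769), Corin (0.767), Pdlim7 (0.758), Lyz2 (0.756) and Lrrc17 (0.753). With the group means taken out r was between 0.432 (Bgn) and 0.729 (Fn1). Fn1, Bgn, Mfap5 and Lama4 encode proteins of the extracellular matrix. The arrays share their RNA quality and normalization, so these values describe likeness only.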

How the data were processed

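Dorsal skin RNA was measured on 21 arrays in 7 groups of 3, taken from the sample labels. The intensity values deposited by the authors are on a linear scale, normalized across arrays. The methods name Expression Console 1.4 and Microarray Suite 5, whereas RMA is the tool in the submitters' notes. The lowest value was 4.35, and detection calls were not used here. The deposited values were floored at 1 before log2 was taken. Probe sets that reached the 20th percentile of their array at least once were kept and the 64 control probe sets left out, which left 40540. A limma 3.58.1 model (R 4.3.3, lmFit and eBayes, 14 residual degrees of freedom) took all arrays with a mean for each group, and its p-values were corrected over all 40540 by the method of Benjamini and Hochberg. Tested on simulated data for UV week 2 against the week 1 control (40540 probe sets), 92% of changes of 1.5 and 100% of changes of 3 on the log2 scale were called, with 11 calls among unchanged probe sets. The simulated noise was normal and independent between probe sets, without the variation in RNA integrity that the real arrays share. More probe sets were changed in it than were called in the real comparison. These percentages therefore need not hold for the real data. The number of arrays limits the precision.

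The members and the gene lists were chosen with earlier results of these data known. Named genes are all 9 members, up to 5 called genes per list in comparisons where a member was called, and the 10 genes most like the members. Alternatives were no filter, quantile normalization, a pseudocount of 16, the compared groups alone, the beta-actin or Gapdh ratio as a covariate, any probe set of a gene, leaving out each array, and, chosen after seeing the data, omitting the 8 arrays whose beta-actin ratio exceeded 4. Promoter sequences are from RefSeq (GRCm38.p6). Figures were drawn with matplotlib 3.10.9 in Python 3.11.15.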

Additional observations from a re-analysis of the deposited data

How the results depend on the processing

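The leading probe set of each member kept its direction in the named comparisons under every alternative that used it, while the second probe sets of Kit and Tpsb2 did not always share it, as given above. Taking for each gene the probe set of smallest p, as the alternative of any probe set was run, changed no direction. Apart from the omission of single arrays, 99 of the single-gene values under another setting kept their side of the threshold, 20 lost a call and 7 gained one. The counts of members called moved as follows. Quantile normalization took the 1 higher at UV week 2 against the week 1 control and against UV week 1 to 0, and the 2 lower at UV weeks 6 and 8 and over all UV groups to 0. The compared groups alone gave 0 in the same comparisons between single groups, and a pseudocount of 16 gave 0 for UV week 2 against UV week 1. With the beta-actin ratio as a covariate UV week 6 had 3 lower, and UV week 8 had 1 lower against the week 1 control and 1 lower against the week 8 control. With it UV week 4 against UV week 2 had 1 lower. In this section, all UV groups stands for the 5 UV groups averaged against both controls. That average had 2 higher with the beta-actin ratio, Tpsb2 (0.43, adjusted p = 0.0226) and Tpsab1 (0.40, adjusted p = 0.0429). This does not mean a rise in each UV week. Without a covariate the mean of Tpsab1 was 6.78 at UV week 2 and 4.83 to 5.11 in the other UV groups, against 5.09 and 4.93 in the controls. With the Gapdh ratio UV week 6, UV week 8 against the week 1 control and all UV groups had 3 lower, UV week 8 against the week 8 control had 1 higher and 2 lower, and UV week 4 against UV week 2 had 1 lower. Without the 8 arrays of a ratio above 4, chosen after seeing the data, UV week 4 had 1 lower, UV week 8 had 0 lower, UV week 2 against UV week 1 had 0 higher, and all UV groups had 1 higher and 1 lower. Leaving out 1 array at a time gave 0 to 1 higher at UV week 2, 1 to 3 lower at UV week 6, 0 to 2 lower at UV week 8, 0 to 1 higher and 0 to 1 lower against the week 8 control, 0 to 2 higher for UV week 2 against UV week 1, 0 to 1 lower for UV week 4 against UV week 2 and 0 to 2 lower over all UV groups. The causes were not tested. No paired analysis was possible because no array number of the labels occurs in more than 1 group. The number of arrays, and for Fcer1a the dim signal, limit what could be detected. For Tpsab1 the signal outside UV week 2 lay near the array medians, which limits how far its fold change can be read.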
